A study of Mus musculus with 8 samples.

Results

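The genes described here encode the metalloproteinases and their inhibitors: every gene measured on the arrays whose symbol begins with Mmp, Timp, Adam, Adamts or Adamtsl followed by a number. This gave 69 genes with 103 probes, of 16593 genes with 23978 named probes. They are 20 matrix metalloproteinases (Mmp), 4 tissue inhibitors of metalloproteinases (Timp), 29 Adam genes, 14 Adamts genes and 2 Adamtsl genes. Transcript levels were measured on Illumina MouseRef-8 v2.0 BeadChips in cells of renin lineage (CoRL), which line the afferent arteriole beside the glomerulus and include the cells that secrete renin. CoRL were sorted from digested kidney cortex of Ren1cCre×Rs-ZsGreen-R mice, in which Cre is expressed from the renin locus and leaves a permanent ZsGreen label in every cell that makes or once made renin. All 8 mice carried both alleles. The 4 uninjured mice were age-matched and received no antibody. The 4 day 5 FSGS mice received sheep antibody against glomerular antigens in 2 doses 24 h apart, at 12 mg for each 20 g of body weight, which depletes podocytes and serves as a model of focal segmental glomerulosclerosis (FSGS), and were studied on day 5.

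Matrix metalloproteinases are zinc enzymes that are made as inactive precursors and cleave collagens, elastin, laminins and many other proteins outside the cell. ADAM proteins sit in the cell membrane and release the outer parts of other membrane proteins, such as TNF, ligands of the EGF receptor and Notch receptors. ADAMTS proteins are secreted and bind to matrix, where they cleave proteoglycans, procollagens or von Willebrand factor, and ADAMTS-like proteins share their matrix-binding modules but have no proteinase domain. The TIMP proteins block the active site of these enzymes. In the kidney the balance between these proteinases and the TIMP proteins is known for its part in turnover of the glomerular basement membrane, mesangial matrix and scar.

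By day 5, Timp2 was 5.08-fold and Adam19 3.96-fold higher than in uninjured CoRL, and these 2 genes alone met the threshold for a call, an adjusted p no higher than 0.01 (limma, Benjamini-Hochberg over all genes). No member was called lower. The macrophage elastase gene Mmp12 was 4.02-fold higher and missed this threshold narrowly, at an adjusted p of 0.0101. The size of these folds depended on the processing. In the authors' processed table the log2 changes of Timp2, Adam19 and Mmp12 were 1.32, 0.76 and 1.67, against 2.35, 1.99 and 2.01 here. Adam19 was detected on 1 of the 4 uninjured arrays. Timp3, an inhibitor that stays bound to matrix, had a level of 11.15 ± 0.39 on the log2 scale at day 5 and of 11.83 ± 0.05 in uninjured CoRL (SD, n = 4 each) and was not called. Of the 69 members, 38 were detected on no array, among them the gelatinase Mmp2.

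Levels are given throughout as normalized log2 intensities, and a difference of 1 on this scale is a 2-fold difference in intensity. A probe was counted as detected on an array where its detection p-value, which compares it with negative control beads, was under 0.01. Where a member was detected on no array of a group, its level there is only a bound and the change given is that of the measured signals. This holds for 13 members detected on day 5 arrays alone, and for 12 of them the bound gave no fold above 1, Adamtsl4 being the other. Where only some arrays of a group detected a member, its levels on the other arrays are likewise measured signals without detection. Levels of different genes are not compared, because each probe has its own brightness. Each array held RNA of 1 mouse, amplified before labelling, and the number of arrays limits the precision. In sorted cells pooled into 1 RNA, fewer cells of a type and less RNA per cell cannot be told apart.

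The arrays were not alike. Uninjured replicate 1 had the fewest detected probes, 5793 against 8365 to 12052 on the other uninjured arrays and 11153 to 11700 on the day 5 arrays. Day 5 FSGS replicate 3 was the day 5 array nearest to the uninjured ones in the macrophage and proximal tubule markers, but not in the endothelial ones, whose mean level was 7.76 there, 6.64, 6.43 and 6.89 on the other day 5 arrays and 6.25 to 6.91 on the uninjured arrays (0 of 22 called). Of 25 macrophage and monocyte markers measured, 12 were called higher and 0 lower, with a mean level of 6.53 to 7.01 on the uninjured arrays and of 8.09 in day 5 FSGS replicate 3, the lowest of the day 5 arrays, up to 9.71. Without day 5 FSGS replicate 3 the 12 became 21 (1187 of all genes were then called higher), and without uninjured replicate 1 they became 0 (29 of all genes). Of 24 proximal tubule markers 0 were called higher and 2 lower, with a mean level of 10.17 to 10.51 in uninjured and 7.52 to 9.84 in day 5 arrays, highest again in day 5 FSGS replicate 3. Renin (Ren1) and Akr1b7 were not analysed here, since no named probe was matched to them. Of the 9 other renin cell markers measured, 2 (Rgs5 and Nr2f2) were detected on all uninjured arrays, 3 on none of the 8 arrays, and 0 were called. On all 4 uninjured arrays 12 of the 25 macrophage and 22 of the 24 tubule markers were detected, and on all 4 day 5 arrays 21 and 18, and their part in the results below was not tested. Over all genes, 312 were called higher and 63 lower. These counts became 719 and 38 when arrays were scaled to their median, and 579 and 446 when they were scaled to their 75th percentile.

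The promoters of 6 members are printed. Timp2 and Adam19 are the called genes, and Mmp12 is given with 3 of its neighbours on chromosome 9, none of them called. These 4 were picked from the 8 measured Mmp genes of a row there that have an AP-1 motif. For Adam19 and Mmp12 the window printed is the one that holds the motif, so its presence here is by choice. Each printed stretch is the 150 bases before the annotated start, 5′ to 3′ on the gene's own strand, from RefSeq on build GRCm38.p6. Capitals mark an AP-1 motif (TGANTCA), a GC box (GGGCGG) or a TATA box (TATAAA). AP-1 factors are known to bind TGAGTCA and TGACTCA, the forms printed here, Sp1-like factors the GC box and the TATA-binding protein the TATA box. The AP-1 counts below took any base at N and so are of a looser form.
Timp2: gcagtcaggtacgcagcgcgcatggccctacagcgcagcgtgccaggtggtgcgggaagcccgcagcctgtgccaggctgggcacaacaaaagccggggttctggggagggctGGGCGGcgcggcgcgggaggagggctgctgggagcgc
Adam19: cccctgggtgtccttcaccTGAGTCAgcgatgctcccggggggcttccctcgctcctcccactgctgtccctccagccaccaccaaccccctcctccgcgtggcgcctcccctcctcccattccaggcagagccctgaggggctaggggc
Mmp12: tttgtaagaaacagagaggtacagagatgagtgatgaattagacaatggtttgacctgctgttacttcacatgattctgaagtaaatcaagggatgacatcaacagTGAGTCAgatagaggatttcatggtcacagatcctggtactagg
Mmp13: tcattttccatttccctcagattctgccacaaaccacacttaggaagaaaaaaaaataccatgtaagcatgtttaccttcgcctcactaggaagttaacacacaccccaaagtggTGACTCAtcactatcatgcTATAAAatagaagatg
Mmp1a: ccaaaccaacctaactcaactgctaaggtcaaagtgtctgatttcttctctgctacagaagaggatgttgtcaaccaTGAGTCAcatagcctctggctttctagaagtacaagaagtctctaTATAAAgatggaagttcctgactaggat
Mmp3: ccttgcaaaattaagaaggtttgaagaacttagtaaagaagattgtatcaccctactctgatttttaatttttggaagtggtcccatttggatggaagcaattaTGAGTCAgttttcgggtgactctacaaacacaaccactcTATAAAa
Timp2 (chr11:118355412-118355561, minus strand) has a GC box whose first base lies 37 bases before the start. Adam19 (chr11:46055834-46055983, plus strand) has an AP-1 motif at 131 bases, in 1 of its 3 annotated start windows. Mmp12 (chr9:7347224-7347373, plus strand) has one at 44 bases, in 1 of 2 windows. Mmp13 (chr9:7272364-7272513), Mmp1a (chr9:7463991-7464140) and Mmp3 (chr9:7445672-7445821), all on the plus strand, have an AP-1 motif followed by a TATA box. In this order of genes the AP-1 motif begins 35, 73 and 46 bases before the start, and the TATA box 16, 28 and 7 bases.

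The last 4 of these promoters belong to a row of 10 neighbouring Mmp genes on chromosome 9, in the order Mmp13, Mmp12, Mmp1b, Mmp3, Mmp1a, Mmp10, Mmp8, Mmp27, Mmp20 and Mmp7, of which all but Mmp27 were measured. Of the 69 members 42 had a RefSeq window. The 250 bases before the start were searched on both strands. An AP-1 motif was found in 12 of the 42 genes and in 8 of the 9 measured genes of the chromosome 9 row, against 6.75% of all 32851 windows. A TATA box was found in 12 of 42 and in 7 of the 9, against 12.4% of all windows. The GC box was found in 17 of 42 and in 0 of the 9, against 32.7% of all windows, and the PU-box GAGGAA, which PU.1 of myeloid cells is known to bind, in 8 of 42 and 4 of the 9, against 23.3%. A gene was counted when any of its windows held the motif, while the shares of all windows count each window. Counted by window, the AP-1 motif was in 12 of 47 member windows. The TATA box was in 12, the GC box in 17 and the PU-box in 8 of the 47. The chromosome 9 row was not counted by window. Such matches are a description of the letters, not of binding. Within the row, 0 of the 9 measured genes were called: Mmp12, Mmp13 and Mmp1a were detected on all 8 arrays with changes of 2.01, 0.17 and -0.54, Mmp8 was detected on 1 day 5 array, and Mmp1b, Mmp3, Mmp10, Mmp20 and Mmp7 were detected on none.

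Most metalloproteinase genes were dim in these cells. Of the 69 members, 55.1% were detected on no array, against 42.4% of all genes, and 23.2% on all arrays of at least 1 group, against 42.0%. Detected on all 4 uninjured arrays were 8 members (11.6%, against 25.7% of all genes), and on all 4 day 5 arrays 15 members (21.7%, against 41.1%). The 7 members detected on all 8 arrays were Timp3, Mmp12, Mmp13, Mmp1a, Adam9, Adam17 and Adamts17. By family, 9 of 20 Mmp genes, 1 of 4 Timp genes, 19 of 29 Adam genes, 8 of 14 Adamts genes and 1 of 2 Adamtsl genes were detected on no array. Of the 38 members detected on no array, 16 were among the 17 Adam genes best known from testis and epididymis. The other of these 17, Adam4, was detected on 1 uninjured array.

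The 4 uninjured arrays detected 9, 10, 12 and 17 members and the 4 day 5 arrays 22, 21, 17 and 27, in order of replicate number. The groups met at 17. The level an array needed for detection, its floor, also differed. The lowest log2 level of a detected probe was 7.37, 6.54, 6.09 and 5.61 in the uninjured arrays. In the day 5 arrays it was 5.68, 5.76, 5.80 and 5.69. Uninjured replicate 4 had the lowest floor of all and the most detected probes (12052), and as many detected members as day 5 FSGS replicate 3. The other day 5 arrays, with floors of 5.68 to 5.76, detected 21 to 27 members. The part of the floor in these counts was not tested. At a detection p under 0.05 the counts were 18, 14, 19 and 26 in uninjured and 31, 28, 27 and 32 in day 5 arrays.

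**Figure D1:**
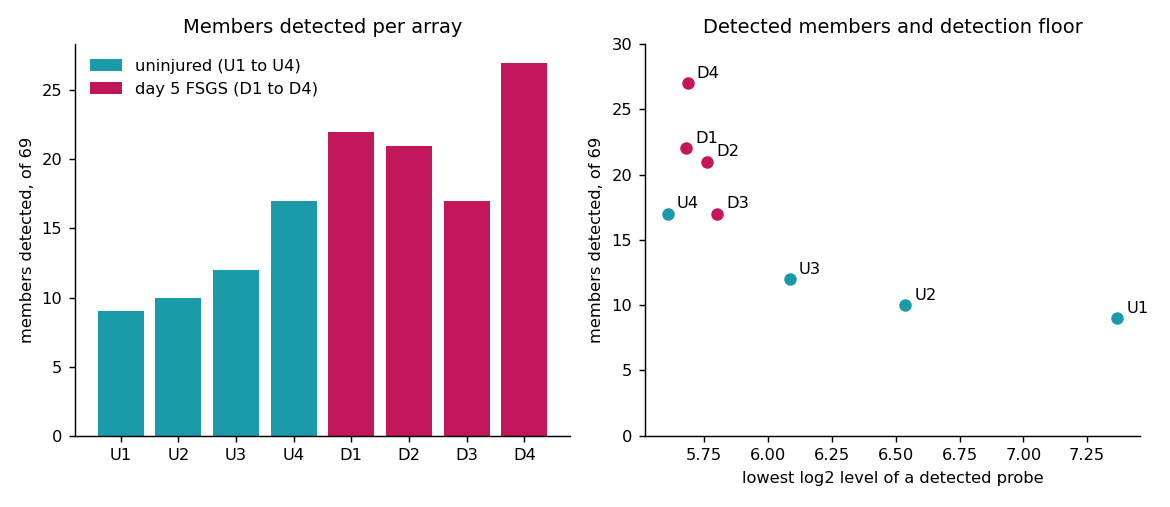
Left, the number of the 69 members detected on each array (detection p under 0.01), for uninjured replicates 1 to 4 (U1 to U4) and day 5 FSGS replicates 1 to 4 (D1 to D4). Right, the same numbers against the lowest normalized log2 level of any detected probe on that array (its floor). The 3 uninjured arrays with the highest floors (6.09 to 7.37) have the fewest detected members (9 to 12), and U4, with the lowest floor (5.61), has 17.

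Over all 69 members the change from uninjured to day 5 was centred near that of the array: 36 had a higher and 33 a lower mean at day 5, and the median log2 change was 0.01 against -0.03 for all genes. Called higher were 2 of 69, against 1.88% of all genes, and called lower 0, against 0.380%. With no adjustment, 18 members were higher at p under 0.05 (15.0% of all genes) and 6 lower (15.5%), and the methods' Bayesian test called 7 higher and 0 lower (5.99% and 3.83% of all genes). With the threshold at 0.05, limma called 7 members higher (8.55% of all genes) and 1 lower (5.80%). The 4 day 5 values lay above all 4 uninjured values for 10 members (10.4% of all genes) and below them for 3 (9.60%). With arrays scaled to their median, all genes had a median change of -0.18 and the members of -0.23. With the 75th percentile as the scale these were -0.52 and -0.58, with 18 members higher and 51 lower.

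Among the 16 members detected on all arrays of a group, 12 had a higher and 4 a lower mean at day 5, and the median change was 0.75 against 0.03 for all genes detected in this way. Of these 16, 2 were called higher (4.39% of all genes so detected), 5 lay above the uninjured arrays without overlap (19.8%) and 2 below (15.9%). A member can enter these 16 through the group in which it is high, so these values describe them only. The 4 with a lower mean were Timp3, Mmp1a, Adamts15 and Adamts17.

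**Figure D2:**
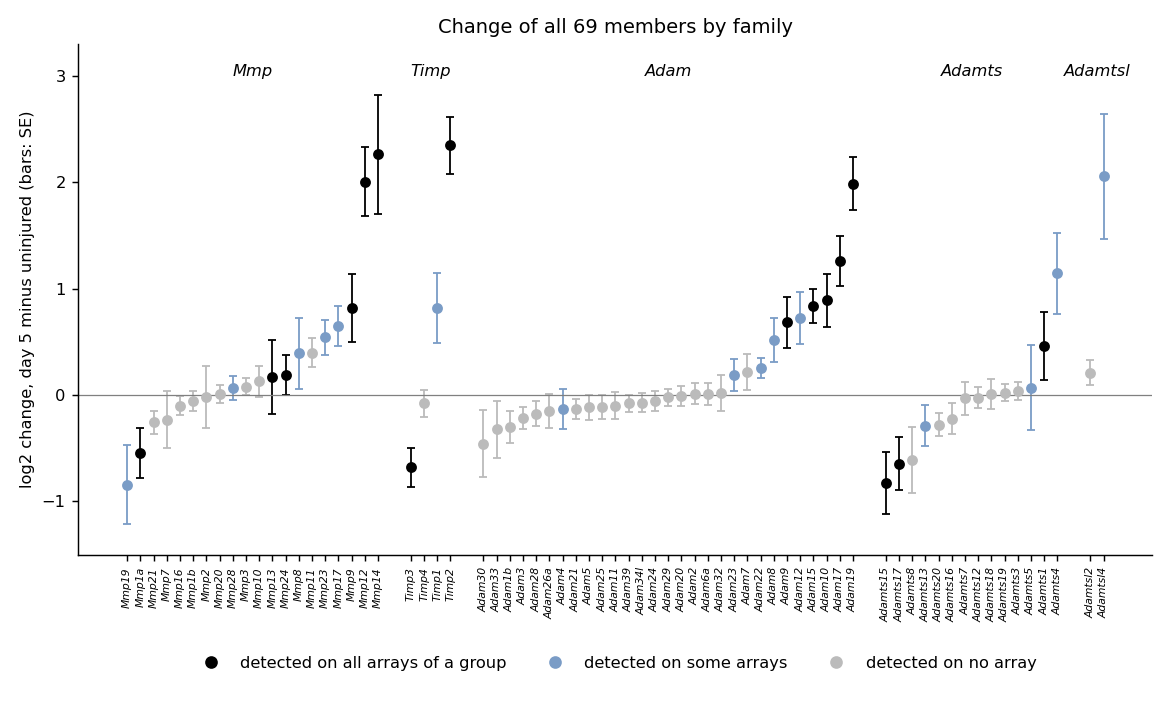
Change of each of the 69 members, day 5 FSGS minus uninjured, on the log2 scale (4 arrays a group), ordered within each family, with bars for the standard error and colours for detection. Members detected on no array (grey) lie near 0, between -0.61 and 0.40, and Timp2, Mmp14, Mmp12 and Adam19, detected on all day 5 arrays, have changes of 1.99 to 2.35.

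Among the 4 inhibitor genes, Timp2 was called higher and the other 3 were not called. Timp2, which blocks most MMPs and also helps MMP14 to activate the precursor of MMP2, had levels of 6.27, 6.80, 6.26 and 6.66 in uninjured and 9.22, 9.16, 8.04 and 8.96 in day 5 CoRL, given here and below in order of replicate number. The groups did not overlap, and the lowest day 5 level, in replicate 3, was above every uninjured one. The mean rose from 6.50 ± 0.28 to 8.84 ± 0.55 (SD, n = 4 each), a log2 change of 2.35 with a standard error of 0.27 and an adjusted p of 0.0050 (limma). Its probe was detected on 3 uninjured and 4 day 5 arrays. Leaving out any 1 of the other 7 arrays brought the adjusted p to between 0.0149 and 0.0218, which is past 0.01, and leaving out day 5 FSGS replicate 3 brought it to 0.000177. Over all genes, 0 to 37 were called higher without any 1 of those 7 arrays, and 1187 without day 5 FSGS replicate 3. Without background correction the log2 change of Timp2 was 1.37, and in the authors' processed table it was 1.32. Timp2 was called in both (adjusted p 0.0048 and 0.0058, limma).

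Timp3, the inhibitor with the widest range, which also blocks ADAM17, had levels of 11.82, 11.81, 11.89 and 11.78 in uninjured and 11.28, 10.88, 11.64 and 10.79 in day 5 CoRL. All 4 day 5 levels lay below the uninjured ones, by least in replicate 3. The log2 change was -0.68 (standard error 0.18, adjusted p 0.0427, limma), not past 0.01, and its 2 probes gave -0.84 and -0.52. Without day 5 FSGS replicate 3 it was -0.85 with an adjusted p of 0.0044, and Timp3 was then called lower.

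Timp1, the inhibitor best known as a marker of renal fibrosis, had levels of 4.96, 4.77, 4.75 and 4.91 in uninjured and 5.80, 5.64, 4.70 and 6.52 in day 5 CoRL. In 3 day 5 mice it was above every uninjured level and in replicate 3 below all of them. It was detected on 0 uninjured and 2 day 5 arrays, and its log2 change of 0.82 had a standard error of 0.33 and an adjusted p of 0.1345 (limma). Without day 5 FSGS replicate 3 the adjusted p was 0.0073. Timp4 was detected on no array, with levels of 4.74 to 5.21 in uninjured and 4.72 to 4.89 in day 5 CoRL.

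Among the matrix metalloproteinases, 6 of 20 were detected on all day 5 arrays and 3 on all uninjured arrays. Of the 20, 13 had a higher and 7 a lower mean at day 5, with a median of 0.10, but the balance turned to 9 and 11 with median scaling and to 6 and 14 where the 75th percentile set the scale. None was called. Mmp12, the macrophage elastase, which cleaves elastin, had levels of 8.79, 7.54, 8.75 and 9.05 in uninjured and 10.84, 10.78, 10.35 and 10.19 in day 5 CoRL. It was detected on all 8 arrays, and the groups did not overlap. The log2 change was 2.01 with a standard error of 0.33 and an adjusted p of 0.0101 (limma), and it met the threshold under 10 of 20 alternative settings.

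Mmp14, a membrane-anchored collagenase that activates the precursor of MMP2, had levels of 4.94, 5.78, 5.73 and 6.24 in uninjured and 8.43, 8.45, 6.17 and 8.69 in day 5 CoRL. Here 3 day 5 mice stood far above all uninjured mice, and replicate 3 lay between uninjured replicates 2 and 4. Its mean change of 2.26 was close in size to that of Timp2, but its standard error was 0.56 and its adjusted p 0.0327 (limma). Without day 5 FSGS replicate 3 the change was 2.85 and the adjusted p 0.000745. Mmp14 was detected on 1 uninjured and on all 4 day 5 arrays. MMP2, on whose activation MMP14 and TIMP2 are known to act, had a probe (Mmp2) that was detected on none, with levels of 4.66 to 5.99 in uninjured and 4.93 to 5.54 in day 5 CoRL.

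The other gelatinase gene, Mmp9, which is abundant in neutrophils, had levels of 6.56, 6.02, 5.68 and 5.93 in uninjured and 6.61, 7.02, 6.17 and 7.65 in day 5 CoRL. The day 5 level of replicate 3 lay within the uninjured range, and the change of 0.82 was not called (adjusted p 0.1266, limma). It was detected on 1 uninjured and on all 4 day 5 arrays.

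The collagenase Mmp13, the main interstitial collagenase of rodents, had levels of 8.54, 7.68, 8.17 and 7.87 in uninjured and 7.83, 8.26, 9.23 and 7.64 in day 5 CoRL. The groups overlapped throughout, with the highest level in day 5 FSGS replicate 3, and the change was 0.17 (standard error 0.35, adjusted p 0.7881, limma). Mmp1a, a rodent counterpart of human MMP1, had levels of 8.14, 7.36, 7.71 and 7.63 in uninjured and 7.46, 6.63, 7.07 and 7.52 in day 5 CoRL. Its change of -0.54 (adjusted p 0.1597, limma) is the mean of a bright probe with -1.04, detected on all 8 arrays, and a dim one with -0.05, detected on 2. Mmp8, the neutrophil collagenase, was detected in day 5 FSGS replicate 4 alone, at 6.21 against 4.59 to 4.78 on the other 7 arrays.

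The remaining Mmp genes were at or near background. Mmp24, a membrane-type enzyme, was detected on 1 uninjured and all day 5 arrays with a change of 0.19 (adjusted p 0.5566, limma). Mmp17, Mmp19, Mmp23 and Mmp28 were detected on some arrays, with changes of 0.65, -0.84, 0.54 and 0.06. Mmp3, Mmp7, Mmp10, Mmp11, Mmp16, Mmp20 and Mmp21 were detected on none, as were Mmp1b and Mmp2, and none of these genes was called.

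**Figure D3:**
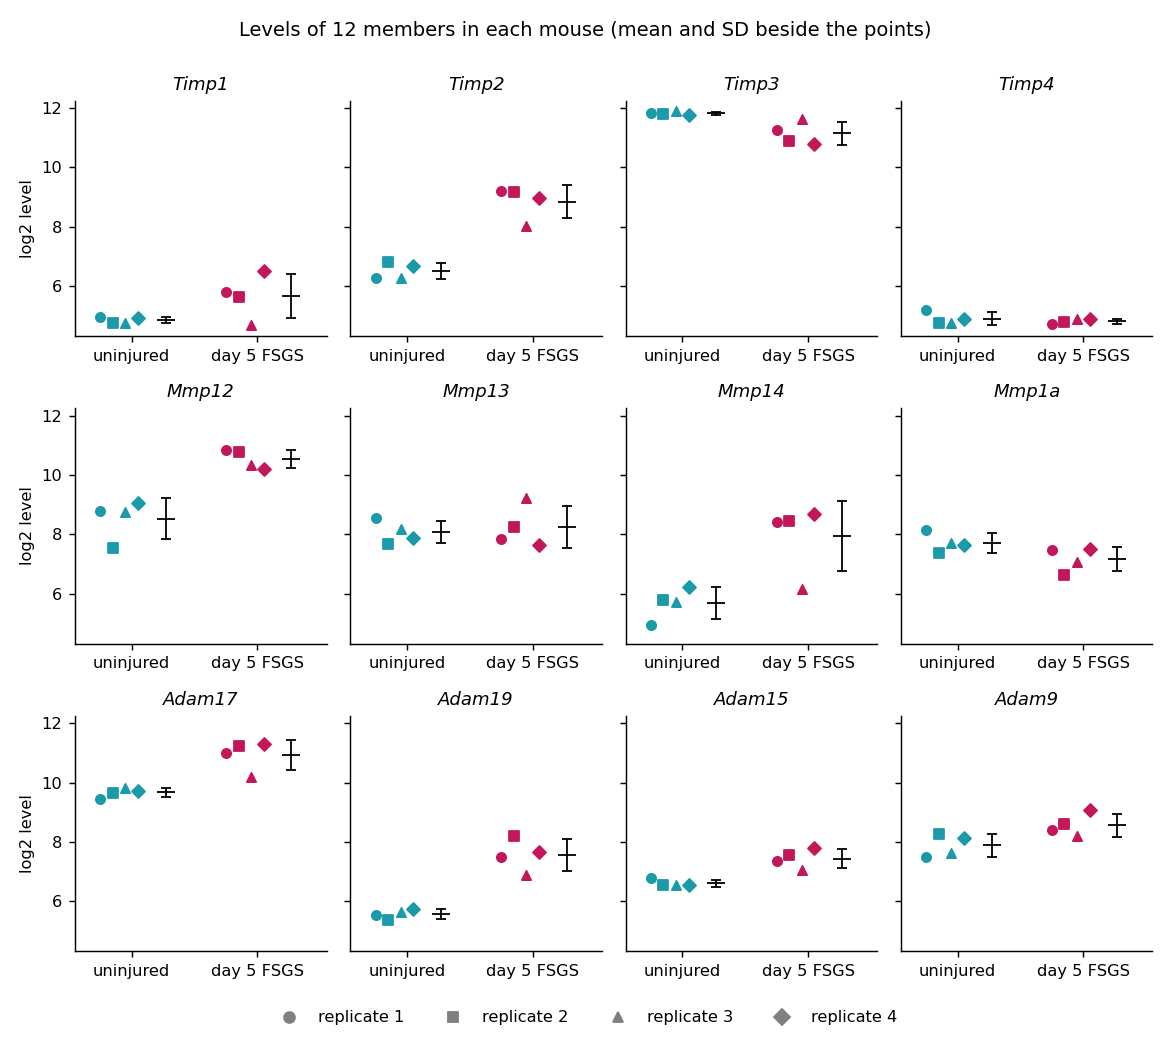
Normalized log2 level of 12 members in each of the 4 uninjured (teal) and 4 day 5 FSGS (red) mice, with symbols for the replicate number and the mean and SD beside the points. In Timp2, Mmp12, Adam17, Adam19 and Adam15 all 4 day 5 points lie above the uninjured ones, in Timp3 below, and day 5 FSGS replicate 3 (triangle) is the lowest day 5 point of Timp2 (8.04), Mmp14 (6.17) and Adam17 (10.20).

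Of the 9 ADAM genes that keep the zinc-binding motif and are active outside the reproductive tract, 7 had a higher mean at day 5 and 2 a lower one, with a median of 0.72, and both counts were the same with median scaling and where the 75th percentile set the scale. The 7, Adam8, Adam9, Adam10, Adam12, Adam15, Adam17 and Adam19, had an unadjusted p under 0.05, against 15.0% of all genes, and for Adam12, Adam15, Adam17 and Adam19 the groups did not overlap, against 10.4%. Of the 9, Adam19 was called and 8 were not, and the 9 as a group were not tested. Adam28 and Adam33, detected on no array, had changes of -0.18 and -0.32.

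Adam19, also named meltrin beta, which processes neuregulin and is needed for heart development in mice, had levels of 5.55, 5.37, 5.64 and 5.75 in uninjured and 7.49, 8.21, 6.90 and 7.66 in day 5 CoRL. On the measured signals, every day 5 level was more than 1 log2 unit above the highest uninjured level. The mean rose from 5.58 ± 0.16 to 7.56 ± 0.54 (SD, n = 4 each), a change of 1.99 with a standard error of 0.25 and an adjusted p of 0.0058 (limma). Adam19 was detected on 1 uninjured and 4 day 5 arrays. Its levels in uninjured replicates 1 to 3 lay under the floors of those arrays (7.37, 6.54 and 6.09). The day 5 level of replicate 3, 6.90, also lay under the floor of uninjured replicate 1. The change of Adam19 is therefore that of the measured signals. Leaving out any 1 of the other 7 arrays gave adjusted p-values of 0.0160 to 0.0261, and leaving out day 5 FSGS replicate 3 gave 0.000427. In the authors' processed table, on log2 values, its change was 0.76 with an adjusted p of 0.0101, and with an offset of 50 its adjusted p was 0.0108, so that it was called in neither.

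Adam17, the enzyme that releases TNF from the cell surface, had levels of 9.46, 9.66, 9.84 and 9.73 in uninjured and 10.99, 11.24, 10.20 and 11.29 in day 5 CoRL. It was detected on all 8 arrays, and replicate 3 was the day 5 array nearest to the uninjured ones. The change was 1.26 with a standard error of 0.24 and an adjusted p of 0.0151 (limma). Without day 5 FSGS replicate 3 it was 1.50 with an adjusted p of 0.000473. Adam10, which cleaves Notch receptors and cadherins, had levels of 4.91, 5.12, 5.07 and 5.83 in uninjured and 5.75, 6.40, 5.84 and 6.50 in day 5 CoRL, so that the groups overlapped by 1 day 5 mouse, and its change was 0.89 (adjusted p 0.0486, limma).

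Adam15, an ADAM with an integrin-binding RGD motif in humans, had levels of 6.79, 6.55, 6.56 and 6.54 in uninjured and 7.36, 7.57, 7.06 and 7.79 in day 5 CoRL. The groups did not overlap, and the change was 0.84 (standard error 0.16, adjusted p 0.0160, limma). Its 2 probes differed, with changes of 1.45 and 0.22, and Adam15 was called when each gene was represented by its brightest probe, the one with 1.45. Adam9, a widely expressed sheddase, had levels of 7.49, 8.29, 7.63 and 8.14 in uninjured and 8.41, 8.60, 8.19 and 9.08 in day 5 CoRL, with a change of 0.68 (adjusted p 0.0976, limma) and an overlap in 1 day 5 mouse, replicate 3. Adam12 and Adam8, detected on 3 and 1 day 5 arrays and on 0 uninjured arrays, had changes of 0.72 and 0.52.

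Of the ADAM genes without the zinc-binding motif, known mainly from brain, Adam22 and Adam23 were detected on 1 and 2 day 5 arrays and Adam11 on none, and none was called. The 3 probes of Adam23 gave changes of 0.95, 0.07 and -0.45. The 17 ADAM genes of the reproductive tract ranged from -0.46 to 0.21, and none was called.

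Among the 14 Adamts genes none was called, and 3 had signal on every array of a group. Adamts15, which cleaves aggrecan and versican, had levels of 7.80, 6.75, 6.74 and 6.78 in uninjured and 6.20, 6.31, 6.62 and 5.63 in day 5 CoRL. All day 5 levels lay below the uninjured ones, and uninjured replicate 1 stood apart at the top. The change was -0.83 (standard error 0.29, adjusted p 0.0946, limma), and without uninjured replicate 1 it was -0.57. Adamts17, whose loss in humans causes a disorder with short stature and displaced lenses, had levels of 8.85, 7.74, 8.48 and 7.94 in uninjured and 7.67, 7.31, 7.86 and 7.60 in day 5 CoRL, with a change of -0.64 (adjusted p 0.1208, limma).

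Adamts1, a proteoglycanase needed for normal kidney development in mice, was detected on 2 uninjured and 4 day 5 arrays, with levels of 5.43 to 6.52 and 5.94 to 7.05, which overlapped. The aggrecanase gene Adamts4 was detected on 0 uninjured and 3 day 5 arrays. Its levels were 4.87, 5.17, 4.67 and 5.55 in uninjured and 6.61, 6.15, 5.14 and 6.93 in day 5 CoRL, where again replicate 3 alone lay within the uninjured range, and its change was 1.14 (adjusted p 0.0798, limma). The other aggrecanase gene, Adamts5, was detected on 2 day 5 arrays with a change of 0.07. Adamts13, which cleaves von Willebrand factor, was detected on 2 day 5 arrays with a change of -0.29.

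Adamtsl4, whose protein binds fibrillin and holds the lens in place, had levels of 4.74, 4.92, 4.91 and 5.36 in uninjured and 6.72, 7.48, 5.38 and 8.58 in day 5 CoRL. It was detected on no uninjured and on 3 day 5 arrays, so the uninjured level is only a bound: with each uninjured array set to the lowest level of a detected probe there, the day 5 mean over all 4 arrays was at least 1.56-fold higher. The fit on the measured signals had an adjusted p of 0.0514 (limma), and Adamtsl4 was not called. The groups did not overlap, but day 5 FSGS replicate 3 was within 0.1 log2 units of uninjured replicate 4. Adamtsl2, which also binds fibrillin, was detected on no array.

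**Figure D4:**
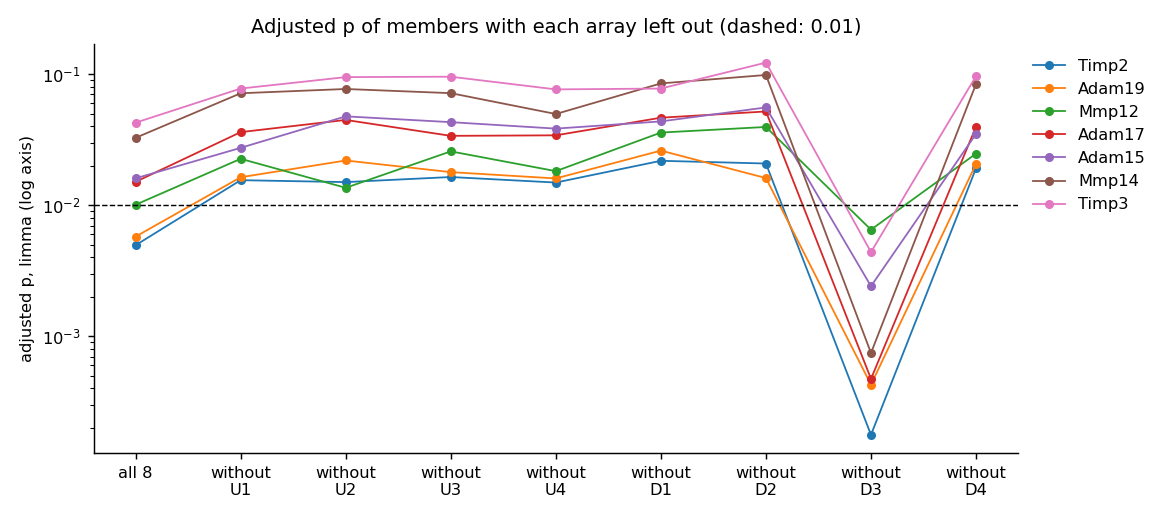
Adjusted p (limma, log axis) of 7 members with all 8 arrays and with each array left out in turn (U1 to U4 uninjured, D1 to D4 day 5 FSGS replicates), with a dashed line at 0.01. All 7 lie under the line without D3, and none does when any other single array is left out. Over all genes, 1187 were called higher without D3 and 0 to 37 without any other single array.

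Day 5 FSGS replicate 3, which had the lowest mean of the macrophage markers (8.09) and the highest of the proximal tubule markers (9.84) among day 5 arrays, also had the lowest day 5 level of Timp2, Adam19, Adam17, Adam15, Mmp14, Adam9, Timp1, Adamts4 and Adamtsl4 and the highest of Timp3. On the other day 5 arrays the order differed: Timp2 was highest in day 5 FSGS replicate 1 and Mmp12 was lowest in replicate 4, while the macrophage markers were highest in replicate 4. Genes of complement C1q, C1qa and C1qb, which mark tissue macrophages, were 8.26-fold and 7.02-fold higher at day 5, and Adgre1, which encodes a macrophage surface protein, was 5.50-fold higher. Adgre1 was also detected on all 4 uninjured arrays. Of the smooth muscle, pericyte and mesangial markers 0 of 19 were called, with mean levels of 5.94 to 6.14 in uninjured and 5.74 to 6.28 in day 5 arrays, and of 18 fibroblast markers 1 was called higher (Serping1). Of 28 genes known to be induced by tissue dissociation, 1 was called higher (Klf2), with a median change of 0.72 and a higher mean at day 5 in 24 of 28. Of the 28, 12 were called higher without day 5 FSGS replicate 3 (1187 of all genes) and 0 without uninjured replicate 1 (29 of all genes). The part of these cells and of dissociation in the changes of the members was not tested.

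**Figure D5:**
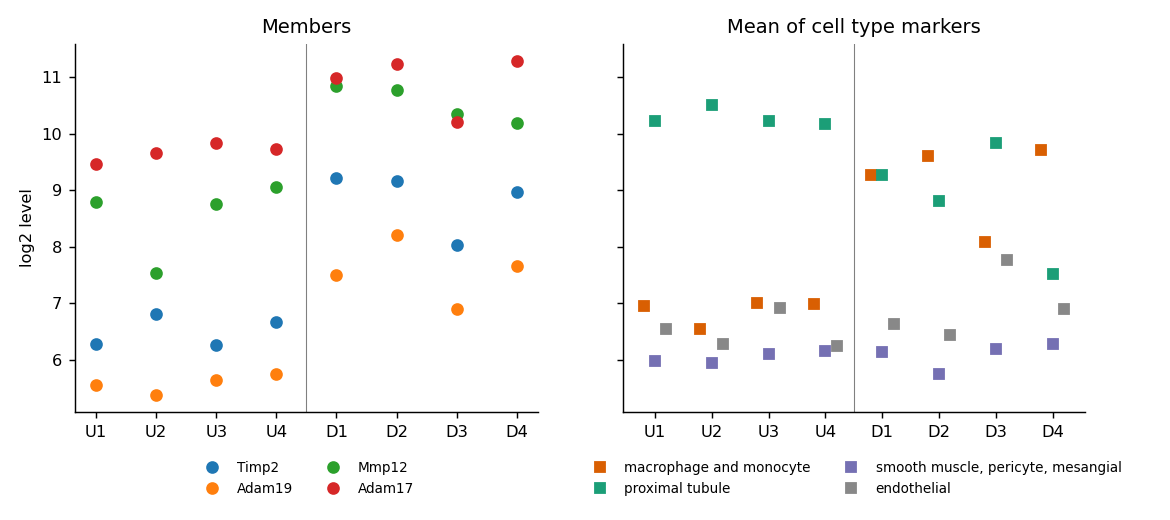
Left, the normalized log2 level of 4 members on each array (U1 to U4 uninjured, D1 to D4 day 5 FSGS replicates). Right, the mean log2 level of 4 lists of cell type markers on the same arrays, where D3 has the lowest macrophage mean (8.09) and the highest proximal tubule mean (9.84) of the day 5 arrays.

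Other genes of the pathway were followed in 6 lists. Of 32 genes whose proteins ADAM10 or ADAM17 are known to shed, 3 were called higher and 0 lower, with a median change of 0.50. These were Axl, a receptor for GAS6 that was 6.57-fold higher, the adhesion molecule Icam1 (3.09-fold) and Notch1 (2.79-fold). Tnf, the best known ADAM17 substrate, was detected on 1 day 5 array with a change of 0.36 (adjusted p 0.19, limma), and the EGF receptor ligand Hbegf had a change of -0.39 (adjusted p 0.34). The ligand gene Egf had a larger change of -2.47 and was not called (adjusted p 0.033, limma). Of the 32 genes, 18 had a higher and 14 a lower mean at day 5.

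Of 32 matrix substrates of MMP and ADAMTS proteins, 2 were called higher and 0 lower, with a median of 0.25: the small proteoglycan Bgn was 2.25-fold and Sparc, a collagen-binding matrix protein, 2.89-fold higher. Of the 32, 20 had a higher and 12 a lower mean at day 5. Col4a3 and Col4a4, collagen chains of the mature glomerular basement membrane, had changes of -1.41 and -1.44 that missed 0.01 (adjusted p 0.02 and 0.011, limma). Some other collagen genes were higher and also missed it: Col3a1 and Col5a1 had changes of 1.71 and 1.78 (adjusted p 0.045 and 0.0101, limma). Col3a1 was detected on 1 and Col5a1 on 0 uninjured arrays, and both on all 4 day 5 arrays. Col1a1 and Col1a2 also had higher means and were not called. Of 21 activators and membrane cofactors of metalloproteinases, among them the proprotein convertase gene Furin (change of -0.15) and Reck, an inhibitor anchored in the membrane that was detected on no array, 0 were called by limma. Of 22 other secreted or cell surface zinc proteinases 0 were called, with a median of -0.21.

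Among the proteinases of other classes, 3 of 22 cathepsins and cystatin inhibitors were called higher and 0 lower, with a median of 0.45. Called higher were 2 of the 69 members and 1.88% of all genes. The classes differed in detection: 13 of the 22 were detected on all day 5 arrays, against 15 of the 69 members. The lysosomal proteinase genes Ctsc and Ctss had log2 changes of 2.81 and 2.16, and the inhibitor gene Cst3 of 1.06. Of 18 genes of plasminogen activation and its serpins, 1 was called higher, Serpinb6a (2.07-fold), with a median of -0.25. The urokinase gene Plau, whose product makes plasmin, an activator of several MMP precursors, had a level of 11.24 in uninjured and 10.82 in day 5 CoRL (adjusted p 0.22, limma). The 2 classes were not compared by a test. When day 5 FSGS replicate 3 was left out, 12 shed proteins were called higher and 2 lower, 6 matrix substrates higher and 2 lower, and 8 cathepsins and cystatins higher. In that setting 3 activators or cofactors and 3 genes of plasminogen activation were also called higher and 2 of the other zinc proteinases lower. Of all genes 1187 were then called higher and 711 lower. Without uninjured replicate 1, 2 shed proteins were called higher and no gene of the other 5 lists was called. Of all genes 29 were then called higher and 2 lower, and calls were as few without most other single arrays.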

How the data were processed

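RNA of ZsGreen-sorted CoRL from 8 mice was hybridized to 1 array each, and the labels assign 4 arrays to each group. The authors deposited a linear intensity and a detection p-value for each of 25697 probes, not normalized, and a second table of the same arrays with their processed signal, variance-stabilized and quantile-normalized (lumi, whose version is not given in the sources used here), which served as an alternative. The platform's table names 23978 probes with 1 symbol, and 1719 are unnamed here. The deposited intensities were brought to log2 levels by neqc of limma 3.58.1 (R 4.3.3: normexp from the detection p-values, offset of 16, quantile normalization, log2). Probes of a gene were averaged, all 16593 genes were fitted with lmFit and eBayes on group alone, and a call required a Benjamini-Hochberg adjusted p no higher than 0.01. A gene was detected on an array when any of its probes was. The script was tested on simulated data. The array columns used were all matched to a sample.

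The members and all lists were chosen with earlier results of these data known. Named with values were the called members, those detected on all arrays of a group whose groups do not overlap, those detected on all 8 arrays and all Timp genes, while all Mmp genes were at least named and lists were named by at most 4 called genes. Mmp14, Adam10, Adamtsl4, Adamts4, Adam8, Mmp9 and further genes given with values were added after their values were seen. For the methods' Bayesian test, the CyberT formula was rebuilt with a confidence of 10 and a window of 101. Nothing says that uninjured mice with a number share a litter or day with day 5 mice of that number. Alternatives covered background correction, scaling, the authors' table, a detection filter, the brightest probe, array weights, the replicate block, thresholds and leaving out arrays. Figures were drawn with matplotlib 3.10.9.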

Additional observations from a re-analysis of the deposited data

Results flagged for a closer look

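Of 36 groups of 4 arrays tested, a single array stood far from the other 3 in 3 groups. Chance alone flags about 1 group in 20. Adam15 in uninjured CoRL was 6.79 in replicate 1 and 6.54 to 6.56 in the others. Adamts15 in uninjured CoRL was 7.80 in replicate 1 and 6.74 to 6.78 in the others. Mmp14 in day 5 FSGS was 6.17 in replicate 3 and 8.43 to 8.69 in the others. The first 2 fall on the uninjured array with the fewest detected probes, and the last on the day 5 array with the lowest mean of the macrophage markers.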

How the results depend on the processing

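Against 2 members called higher, 1 was called with an offset of 50, 4 with median scaling, 5 with 75th percentile scaling, 5 of the 16 members detected on all arrays of a group when only such genes were tested, 4 with the brightest probe, 7 with the methods' Bayesian test, 6 with array weights and 7 at an adjusted p of at most 0.05, where 1 was called lower. The counts over all genes moved too. Against 312 called higher in the main fit, 157 were with the offset of 50, 719 with median and 579 with 75th percentile scaling. They were 724 of 6976 with the detection filter, 345 with the brightest probe, 994 with the Bayesian test and 966 with array weights. At an adjusted p of at most 0.05 they were 1419. With the replicate number as a block 0 members and 0 genes in all were called. Whether the numbers pair the mice is not given by the labels. The deviations of same-numbered arrays from their group means correlated by 0.06, -0.09, -0.07 and 0.11. With 4 arrays a group, such values cannot exclude a pairing. Leaving out 1 array gave 0 to 10 members called higher and 0 to 1 lower. The 10 and 1 were without day 5 FSGS replicate 3, when 1187 genes in all were called higher and 711 lower. Leaving out any 1 of the other 7 arrays gave 0 of both. Over all genes those 7 settings gave 0 to 37 called higher and 0 to 2 lower, against 312 and 63 with all 8 arrays. With uninjured replicate 1 and day 5 FSGS replicate 3 both left out, 6 members were called higher and 1 lower, and of all genes 1087 and 629. Without background correction and with log2 taken before quantile normalization, the latter chosen after seeing the data, 3 members were called higher. Of all genes 361 and 317 were called higher in these settings. At a detection p under 0.05, 13 members in place of 8 were detected on all uninjured arrays and 22 in place of 15 on all day 5 arrays.

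Of 373 values of 18 named members under 21 alternatives, 3 changed sign, all in members that were not called: Timp4 ranged from -0.13 to 0.023 with 1 array left out (0.023 without uninjured replicate 1) and was 0.0020 with both arrays left out, and Mmp13 ranged from -0.16 (without day 5 FSGS replicate 3) to 0.37. A further 42 values passed the threshold where the main value did not, and 18, all of Timp2 or Adam19, no longer did. The cause was not tested. With 4 arrays a group and most members near background, a fold of a dim gene is compressed, and a change that was not called may lie below what these arrays can measure.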
